A study of Mus musculus with 143 samples.

Results

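The genes described here encode the proteins of the cytosolic ribosome. They were chosen by name as protein-coding genes with a symbol of Rpl or Rps followed by a digit, or Rplp, together with Rpsa, leaving out the Rps6k kinases and pseudogene names. The rule found 88 of the 55740 genes in the count files, on 19 chromosomes. Of these, 53 belong to the large subunit and 33 to the small subunit. The other 2, Rps19bp1, which encodes a protein that binds RPS19, and Rpl7l1, which encodes a nucleolar relative of RPL7, fit the name rule but are not ribosomal proteins and are counted apart.

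Ribosomal proteins are made in matched amounts and assembled on ribosomal RNA in the nucleolus, and their mRNAs are among the most abundant and stable in most cells. Many of these mRNAs begin with a run of pyrimidines (a TOP motif), through which the mTOR pathway and the protein LARP1 control their translation and stability. A growing oocyte stocks ribosomes and mRNA, and transcription is silent by the time it is fully grown. During the meiotic divisions that follow, much of the stored maternal mRNA is deadenylated and degraded, and mRNAs of ribosomal proteins are known to be among those that are lost.

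RNA was sequenced from single mouse oocytes, either control or with Dis3 conditionally deleted (Dis3 cKO), Exosc10 conditionally deleted (Exosc10 cKO), or both (dcKO). DIS3 and EXOSC10 are the catalytic ribonucleases of the nuclear RNA exosome, which trims and degrades RNA. In poly(A) libraries the oocytes had an intact germinal vesicle (GV), had been cultured for 3 h (GV3h), or were ovulated eggs at metaphase II (MII). There were 8 control libraries at each stage, and 15 GV, 16 GV3h and 16 MII libraries of Dis3 cKO, while GV Dis3 cKO oocyte 9 was not analysed here. RiboMinus libraries, made after removal of ribosomal RNA, form 6 groups of 8, namely control and Dis3 cKO oocytes from adult ovaries at the GV stage, and control, Dis3 cKO, Exosc10 cKO and dcKO oocytes from mice of postnatal day 20 (p20). Per the labels, GV and GV3h oocytes were dissected from ovaries, MII eggs came from oviducts of superovulated mice, and mutant mice were made by CRISPR/Cas9. The labels do not give the Cre driver, the strain, or the age of the adults, and do not say which oocytes shared a mouse, so p-values measure the spread between these oocytes. Oligo-dT beads capture RNA that carries a poly(A) tail, and no RiboMinus group was at MII, so that at MII loss of an mRNA and loss of its tail cannot be told apart.

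Libraries held 4843964 to 15412200 gene counts in the poly(A) set and 8492102 to 35429028 in the RiboMinus set. All 12 oocyte markers tested had counts in every group, with a summed level of 8642 to 24015 CPM in poly(A) libraries. The targeted genes followed the labels: Dis3 was at 2.67 to 20.8 CPM in control MII eggs and at 0 to 2.37 CPM in Dis3 cKO eggs, and Exosc10 was at 102 to 138 CPM in p20 control oocytes and at 0.347 to 10.5 CPM in Exosc10 cKO. Here and below, CPM is the count scaled to a library size of 1e+06 gene counts after TMM scaling, which takes most genes as unchanged, and are not corrected for gene length. Each library also holds 92 synthetic ERCC RNAs added to the lysate, which give a second scale. Relative to ERCC, the median of all genes moved by −2.12 (log2) from control GV to MII, by 0.52 with Dis3 cKO at MII, by −0.52 with Dis3 cKO in adult RiboMinus oocytes and by −1.69 from p20 to adult controls, so directions below are relative to the other genes unless ERCC is named.

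Reads of ribosomal protein genes can also match pseudogene copies, of which the count files list 291. How the authors treated reads with several matches is not given in the sources used here. Pseudogene counts came to 0.966 to 1.28 per 100 ribosomal protein gene counts in control GV oocytes and to 1.10 to 2.47 in GV Dis3 cKO. Levels of Rpl37rt, Rps27rt, Rpl10l, Rpl32l and other genes with a near-identical copy are uncertain for the same reason. Of the 88 genes, 83 passed the filter on low counts in poly(A) libraries, 79 in adult RiboMinus and 80 in p20 RiboMinus libraries. The 5 that did not in poly(A) libraries were Rpl32l, Rpl3l, Rpl36, Rps27rt and Rps27, with 2, 0, 14, 16 and 27 reads over the 8 control GV libraries.

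The bases around the annotated starts are shown first, because a TOP motif lies at the start of the mRNA. RefSeq start sites (GRCm38.p6) were matched for 68 of the 88 genes. For windows and motifs, a gene with several annotated starts was represented by the start with the lowest coordinate, whatever its strand. Each line gives 15 bases before and 15 bases from the start, on the gene's strand, 5′ to 3′, with CTTT in capitals. CTTT was sought anywhere in these 30 bases, also before the start, where it is not part of the mRNA. Its presence is therefore not a count of TOP motifs. The genes are Rps27l, which rose from GV to MII, Rpl39, Rps13 and Rps15, which fell steeply, Rpl4 and Rpl15, which fell little or did not pass the test, Rpl38, Rps12 and Rpl41, which were higher in Dis3 cKO eggs, and Rps6, which was lower in them.
Rps27l, chr9:66946071-66946100, plus strand: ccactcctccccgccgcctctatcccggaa
Rpl39, chrX:37085208-37085237, minus strand: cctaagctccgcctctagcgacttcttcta
Rps13, chr7:116334176-116334205, minus strand: gagagcaaacgtcggtgagtggcgtcactt
Rps15, chr10:80292416-80292445, plus strand: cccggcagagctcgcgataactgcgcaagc
Rpl4, chr9:64173372-64173401, plus strand: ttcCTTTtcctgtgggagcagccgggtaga
Rpl15, chr14:18270972-18271001, minus strand: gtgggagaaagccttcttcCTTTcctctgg
Rpl38, chr11:114668565-114668594, plus strand: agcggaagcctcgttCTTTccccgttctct
Rps12, chr10:23787195-23787224, minus strand: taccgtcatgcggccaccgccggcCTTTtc
Rpl41, chr10:128549154-128549183, minus strand: cacacgggccggctcggaagtgacgacacc
Rps6, chr4:86857353-86857382, minus strand: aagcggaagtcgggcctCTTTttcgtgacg

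CTTT stood on the gene strand of this window in 22 of the 68 genes (32.4%), and in 10.6% of the windows of all 17492 protein-coding genes with a start. On the other strand it stood in 3 of the 68 (4.41%) and in 10.1% of all genes. The longer TCTTT, which contains CTTT, was in 10 of the 68 windows (14.7%) on the gene strand and in 2.90% of all windows. CCGGAAG, a sequence of the kind ETS factors bind, was found on either strand of the 300 bases from 250 before to 50 after the start in 26 of the 68 (38.2%) and in 11.8% of all genes. TATAAA was in 8 of the 68 (11.8%) and in 13.3% of all genes, on either strand of the same 300 bases. Of the 60 genes with a window that were lower at MII than at GV in controls, 19 held CTTT, and of the other 4 that were tested (Rpl10l, Rpl15, Rps27l and Rps28) 1 did.

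In control oocytes, ribosomal protein mRNA fell between GV and MII far more than most mRNA. Together the 88 genes made up 0.285% to 0.369% of gene counts in the 8 GV libraries (median 0.337%) and 0.0665% to 0.0798% in the 8 MII libraries (median 0.0678%), and the groups did not overlap. The median share was 4.97-fold lower at MII, and 8.79-fold lower without the 5 genes with the highest share. Set against ERCC counts, it was 14.6-fold lower. Of the 83 genes tested, 79 were lower and 1 was higher at an adjusted p under 0.05 by edgeR, where 35.8% of all genes tested were lower and 22.7% were higher. The median log2 change was −3.30, a 9.84-fold decrease, beside −0.27 for all genes. The quartiles were −4.25 and −2.40. Of the 83, 67 were lower in every MII egg than in any GV oocyte and 1 was higher, beside 17.6% and 10.8% of all genes tested. Both subunits moved alike in these counts, with 48 of 50 large subunit genes lower at a median of −3.30 and 29 of 31 small subunit genes lower at a median of −3.43. Scaled to ERCC, all 83 were lower, beside 87.5% of all genes tested, with a median of −5.17 beside −2.12 for all genes. Mitochondrial transcripts were 0.196% to 0.337% of gene counts in GV and 0.682% to 1.09% in MII controls, without overlap, and their part in the share was not tested.

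The steepest falls were in genes of both subunits. Rpl39, which encodes a short protein of the large subunit near the exit of the nascent peptide, was at 70.8 to 83.2 CPM in GV (median 78.8) and at 0.205 to 2.72 CPM in MII eggs (median 1.07). Its log2 change was −5.86 (SE 0.44, adjusted p = 1.84e-19), and every MII egg was far below every GV oocyte. Rps15, which encodes a protein of the head of the small subunit, went from 28.1 to 47.7 CPM (median 33.9) down to 0.124 to 2.46 CPM (median 0.315), a log2 change of −5.57 (SE 0.41). Rps13 had a log2 change of −5.67 (SE 0.52), and Rps19, which is mutated in Diamond-Blackfan anaemia, fell from a median of 26.0 to 0.332 CPM, a log2 change of −5.26 (SE 0.56). Rpl9 had 62 reads over the 8 GV libraries and 0 in all 8 MII libraries. Against a floor of 3 reads over the group, it was at least 28-fold lower at MII, and the median over the 83 genes was −3.30 with that bound as well.

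Rps27l was the 1 gene that was higher at MII. It encodes a paralogue of RPS27 and is known as a target of p53. The 8 GV oocytes held 87.1 to 148 CPM (median 124) and the 8 MII eggs 297 to 376 CPM (median 329.9), with no overlap. Its log2 change was 1.42 (SE 0.20, adjusted p = 5.22e-09) relative to other genes, and it reversed to −0.43 (adjusted p = 0.0033) when libraries were scaled to ERCC, so the rise was a smaller loss than that of most genes on that scale. In GV oocytes Rps27l took 3.15% to 4.57% of all ribosomal protein gene counts (median 3.78%), and in MII eggs 35.8% to 42.5% (median 38.3%). Without it, the small subunit genes made up a median of 0.124% of gene counts in GV oocytes and 0.00968% in MII eggs. Its parent Rps27 did not pass the filter on low counts, with 27 reads over the GV libraries and 0 over the MII libraries.

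A few other genes changed little between GV and MII. Rpl4, a core protein of the large subunit, stayed among the highest counts, at 160.5 to 204 CPM in GV (median 186) and 95.5 to 183 CPM in MII (median 146). The ranges overlapped, and its log2 change was −0.37 (SE 0.12). Rpl22 and Rps15a had log2 changes of −0.58 and −0.57. Rpl15 (log2 change −0.02, SE 0.14, adjusted p = 0.92), Rpl10l (−0.21, SE 0.40, adjusted p = 0.675) and Rps28 (−0.13, SE 0.77, adjusted p = 0.895) did not pass the test. Rpl15 stood at 21.4 to 40.4 CPM in GV and 18.3 to 38.6 CPM in MII libraries, and Rps28 had a median of 0.504 CPM in GV. Scaled to ERCC, these genes were lower as well, since all 83 were.

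Paralogues did not always move with their parents. Rpl22l1 had a log2 change of −4.69 (SE 0.50) where its parent Rpl22 had −0.58 (SE 0.18). Rpl22 stood at 8.61 to 33.9 CPM in MII eggs, and Rpl22l1 at 0.102 to 1.74 CPM. Rpl10l, an autosomal copy of the X-linked Rpl10 known for its part in male meiosis, did not pass the test, and Rpl10 had −1.97 (SE 0.38). Among the other pairs both genes fell: Rpl39l −4.24 and Rpl39 −5.86, Rpl36al −4.41 and Rpl36a −3.64, Rpl7l1 −3.07 and Rpl7 −4.11. Differences within pairs were not tested. The stalk proteins P0, P1 and P2, which recruit translation factors to the large subunit, fell unequally, with Rplp0 at −2.82 (SE 0.20), Rplp1 at −3.61 (SE 0.31) and Rplp2 at −1.13 (SE 0.21).

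**Figure D1:**
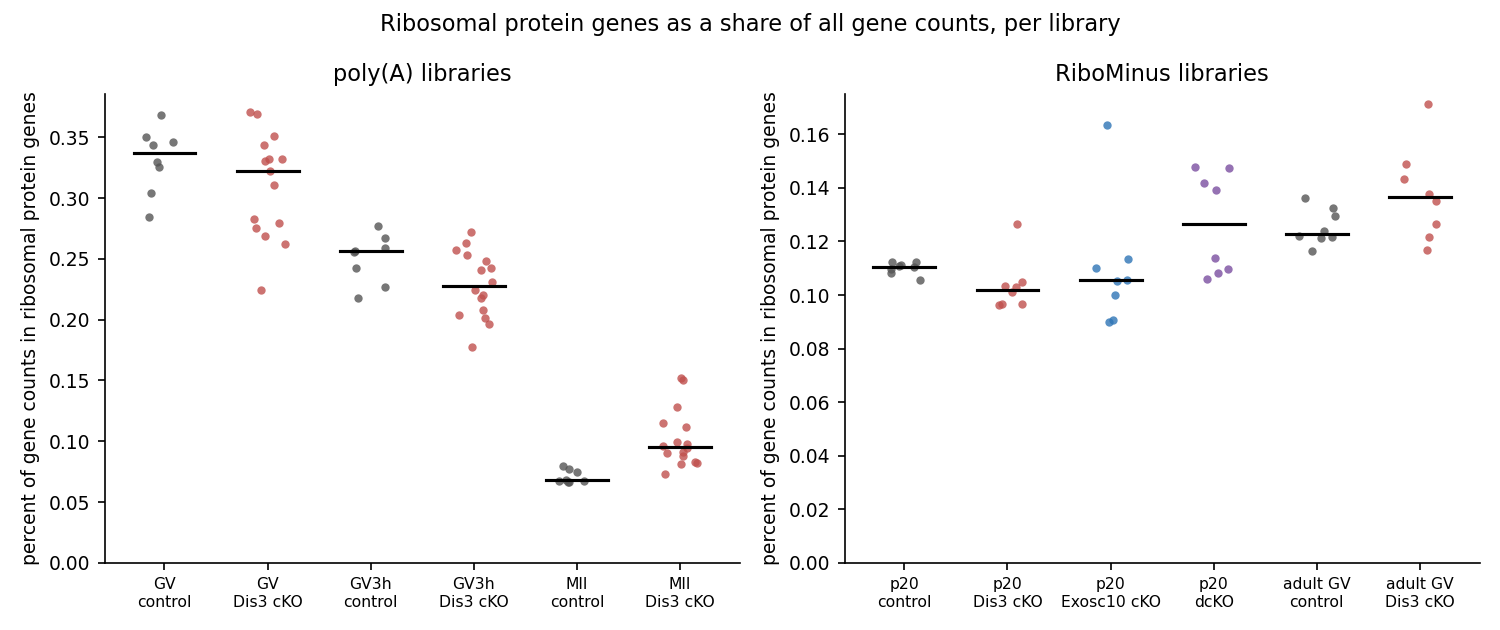
Percent of gene counts in ribosomal protein genes in each library (points), by group, for poly(A) libraries (left) and RiboMinus libraries (right); the bar is the median. Control MII eggs lie between 0.0665% and 0.0798%, below all GV oocytes, and Dis3 cKO eggs spread upward to 0.152%.

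Genes outside the name rule that work with these showed a smaller and mixed change from GV to MII in controls. Fau, whose product is cleaved to the ribosomal protein S30, fell by 3.41 on the log2 scale, and Rack1, a protein bound to the small subunit, rose by 0.35 (SE 0.15). Of 17 translation factors and related genes with TOP mRNAs, 9 were lower and 3 were higher, with a median of −0.59. Eif3l (−2.75), Naca (−2.65) and Eef1a1 (−1.74) fell, while Nap1l1 (0.81) and Npm1 (0.73) rose. Of 14 regulators of TOP mRNAs and genes of the mTOR pathway, 5 were higher, among them Mtor (0.70) and Rheb (0.88), and 3 were lower, among them Larp1 (−1.31). Of 33 ribosome assembly factors tested, 19 were lower and 7 were higher (median −0.49), with Eif6, which keeps the subunits apart, at −3.74 and Nop58, a core protein of box C/D snoRNPs, at 1.00. Of 11 genes of RNA polymerase I and its factors, 8 were lower and 2 were higher (median −0.86). Among pseudogenes of ribosomal proteins, 13 of 291 were tested and 8 were lower.

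After 3 h of culture the share of this mRNA was 1.32-fold lower in control oocytes. It was 0.218% to 0.277% (median 0.256%) in GV3h against a median of 0.337% in GV, and no GV3h library reached the lowest GV library. Of the 83 genes, 78 had a negative log2 change, with a median of −0.43 beside −0.05 for all genes. By edgeR's test, 27 of the 83 had an unadjusted p under 0.05. Here and below, the share of all genes at that unadjusted limit was not counted, so no result is read from such counts. After adjustment, 3 were lower and 0 higher, with 1.56% and 1.14% of all genes tested in those directions. Those 3 were Rpl14 (log2 change −1.16, SE 0.25, adjusted p = 0.00494), Rps7 (−0.68, SE 0.20) and Rpl15 (−0.48, SE 0.14). Rpl14 went from 19.7 to 33.2 CPM down to 8.82 to 16.3 CPM, and Rps7 from 38.4 to 50.1 CPM down to 23.3 to 32.7 CPM, in both cases without overlap. The count depended on the fit: 35 of 78 were lower when the 2 groups were fitted alone, 8 of 83 by DESeq2's Wald test, and 0 when scaled to ERCC. In the fit of the 2 groups alone 7.45% of all genes were lower, by the Wald test 1.94% were, and with ERCC scaling 0.299% were. The summed level of the 12 granulosa and cumulus markers was 99.0 to 204 CPM (median 127) in GV and 73.5 to 109.96 CPM (median 88.1) in GV3h, with the median of Inha at 20.6 and 1.30 CPM, and their part in the change was not tested.

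Few ribosomal protein genes passed the test between Dis3 cKO and control GV oocytes. Their share was 0.224% to 0.371% (median 0.323%) in the 15 Dis3 cKO libraries and 0.285% to 0.369% in controls. Of 83 genes, 1 was higher and 8 were lower, beside 13.6% and 8.33% of all genes tested, and the median change was −0.11. Rps15a rose from 26.8 to 47.7 CPM (median 33.7) to 35.3 to 79.0 CPM (median 59.5), a log2 change of 0.72 (SE 0.21, adjusted p = 0.00623). Rps6, which encodes the small subunit protein phosphorylated by S6 kinase, went from 1.85 to 3.67 CPM (median 2.49) to 0 to 1.48 CPM (median 0.537). That was a log2 change of −2.03 (SE 0.42, adjusted p = 0.000129), and the ranges did not overlap. It was the 1 gene of the 83 with every mutant oocyte below every control, beside 1.12% of all genes tested, and 0 of the 83 lay wholly above, beside 2.04%. Rpl37rt (−1.49, SE 0.43), Rpl6 (−0.83), Rpl14 (−0.69) and Rplp0 (−0.56) fell, as did Rps9 (−0.51) and Rpl13a (−0.33). Scaled to ERCC, 13 were lower, beside 13.3% of all genes, and none of the 83 was higher, beside 7.27%. The share differed by title number with overlap, at 0.311% to 0.371% in mutant oocytes 1 to 8 and 0.224% to 0.323% in those over 8. With title numbers 1 to 8 alone, 4 genes were higher and 4 lower, beside 13.6% and 9.11% of all genes, with a median of 0.02 in place of −0.11. With the replicate number as a block 2 were higher and 5 lower, beside 12.6% and 8.33%. Granulosa and cumulus markers summed to 73.9 to 185 CPM (median 92) in the mutant oocytes, against a median of 127 CPM in controls. Mitochondrial transcripts were 0.388% to 1.35% of gene counts in mutant and 0.196% to 0.337% in control oocytes, without overlap, and the part of neither measure was tested.

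At GV3h, 5 genes were higher and 10 lower in Dis3 cKO, beside 22.9% and 15.7% of all genes tested, with a median of −0.20. Rpl9 (log2 change 1.93), Rpl10l (1.51), Rps18 (1.38), Rpl23 (1.12) and Rpl15 (0.36) rose. The largest decreases were in Rpl37rt (−1.69), Rps6 (−1.33), Rplp0 (−0.69), Rps9 (−0.61) and Rpl13a (−0.57). Rplp0 was at 115 to 145 CPM in control GV3h oocytes (median 138) and at 51.7 to 130 CPM in Dis3 cKO (median 79.4), and each of the 16 mutant oocytes was below the control median. With libraries of title numbers 1 to 8 alone the split was 6 higher and 5 lower, beside 21.3% and 16.3% of all genes, and with the replicate number as a block it was 8 and 7, beside 22.1% and 15.3%. With the 2 groups fitted alone it was 9 higher and 30 lower of 81, beside 29.7% and 24.9%. Granulosa and cumulus markers summed to 50.2 to 94.8 CPM (median 71.2) in mutant oocytes and had a median of 88.1 CPM in controls. Mitochondrial transcripts were 0.332% to 0.60% in mutant and 0.235% to 0.401% in control oocytes, and the part of neither measure was tested. The test of the difference between the effects at GV3h and at GV called 0 genes by edgeR, where 1.37% of all genes were higher and 0.667% lower, with 5 at an unadjusted p under 0.05 and 0 by DESeq2.

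In MII eggs the picture was different: about as many ribosomal protein genes were higher in Dis3 cKO as were not. Their share was 0.0734% to 0.152% of gene counts in the 16 Dis3 cKO eggs (median 0.0956%), against 0.0665% to 0.0798% in the 8 control eggs, a 1.41-fold higher median with overlapping ranges. Large subunit genes made up 0.0416% to 0.10% in mutant eggs and 0.0296% to 0.0358% in controls, without overlap. Small subunit genes made up 0.0293% to 0.0869% (median 0.0403%) in mutant eggs and 0.0341% to 0.0437% (median 0.0365%) in controls, with overlap. Of 83 genes, 40 were higher and 3 were lower, beside 27.3% and 14.8% of all genes tested. The median log2 change was 0.63, a 1.55-fold increase, beside 0.16 for all genes. By subunit, 25 of 50 large subunit genes were higher and 0 lower, and 13 of 31 small subunit genes were higher and 3 lower. Rps19bp1 (1.30, SE 0.22) and Rpl7l1 (0.81, SE 0.28) were also higher. Scaled to ERCC, 47 were higher and 1 was lower, beside 37.6% and 4.31% of all genes, whose median was then 0.52. Fitted on the MII groups alone, 58 of the genes passed the filter, 22 were higher and 1 was lower, beside 17.5% and 13.2% of all genes, all 23 among the 43 called here. With title numbers 1 to 8 alone 29 were higher and 3 lower, beside 22.5% and 13%.

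The 5 largest fitted increases at MII were in Rpl41, Rpl39 and Rpl9 of the large subunit and Rps29 and Rps12 of the small subunit. Rpl41, which encodes one of the shortest known proteins, was at 1.84 to 17.9 CPM in control eggs (median 4.73) and at 10.5 to 139 CPM in Dis3 cKO eggs (median 34.9). Its log2 change was 2.95 (SE 0.35, adjusted p = 1.62e-10), and all 16 mutant eggs were above the control median although the ranges overlapped. Rpl39 was at 0.205 to 2.72 CPM (median 1.07) in controls and 1.56 to 37.2 CPM (median 4.37) in mutants, a log2 change of 2.68 (SE 0.38, adjusted p = 3.43e-08). Control GV oocytes held 70.8 to 83.2 CPM of Rpl39, so the mutant eggs remained below every GV control. Rpl9 had 54 reads in the 16 mutant eggs, of which 10 had none, and 0 reads in the 8 controls, at least 9.85-fold higher against a floor of 3 reads over the group.

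Small subunit genes moved in both directions. Rps29 had 0 to 0.853 CPM in control eggs (median 0.108) and 0.308 to 10.9 CPM in mutant eggs (median 1.14), a log2 change of 3.20 (SE 0.51, adjusted p = 5.15e-07). Rps12 rose by 2.74 on the log2 scale (SE 0.73, adjusted p = 0.0017), from a median of 0.0535 CPM to 0.275 CPM, with 12 of 16 mutant eggs above the control median. Rps6, in contrast, was lower, at 0 to 0.707 CPM (median 0.270) in controls and 0 to 0.213 CPM in mutants, of which 9 of 16 were at 0 (log2 change −1.99, SE 0.51, adjusted p = 0.00104). Rps20 also fell (−0.48, SE 0.19, adjusted p = 0.0314). Rps27l, the highest of the genes by counts in control eggs, was at 145 to 815 CPM in mutant eggs (median 278) and did not pass the test (log2 change −0.15, SE 0.17, adjusted p = 0.513). Its part of ribosomal protein gene counts was 11.3% to 46.8% (median 25.7%) in mutant eggs.

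In 4 of the 83 genes every mutant egg was above every control egg, beside 2.02% of all genes tested: Rplp2, Rpl27, Rps21 and Rps19bp1. In 0 of the 83 was every mutant egg below every control egg, beside 1.47% of all genes. They are named because their ranges were seen not to overlap. Rplp2 stood at 12.8 to 23.2 CPM in control eggs and 29.6 to 137 CPM in mutant eggs (log2 change 1.51, SE 0.19), Rps21 at 1.36 to 2.37 CPM and 3.74 to 20.6 CPM (2.19), and Rpl27 at 0.216 to 1.94088 CPM and 1.94094 to 6.53 CPM (1.74). Rplp1, the partner of RPLP2 in the stalk, was at 2.87 to 27 CPM (median 6.36) in controls and 20.6 to 141 CPM (median 39.2) in mutants, a log2 change of 2.54 (SE 0.28). Rplp0, to which both bind, was at 15.1 to 30.3 CPM and 11.9 to 41.0 CPM and did not pass the test (0.27, SE 0.17, adjusted p = 0.19). Among the paralogue pairs, Rpl22 (1.07, SE 0.16) passed and Rpl22l1 (0.60, SE 0.44) did not, while both genes of the pairs Rpl39l and Rpl39 (1.38 and 2.68), Rpl36al and Rpl36a (0.75 and 1.08) and Rpl10l and Rpl10 (1.03 and 1.38) were higher.

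The effect of Dis3 cKO differed between MII and GV. A contrast of the 2 effects was positive in 34 genes and negative in 1 at an adjusted p under 0.05, beside 9.28% and 3.88% of all genes tested, with a median of 0.83 and of 0.07 over all genes. Of the 34, 22 were of the large and 10 of the small subunit. The difference in log2 change was 3.41 for Rps29 (SE 0.63, adjusted p = 6.53e-05), 2.92 for Rpl41 (SE 0.44, adjusted p = 1.48e-06), 2.72 for Rpl39 (SE 0.47) and 2.67 for Rplp1 (SE 0.36, adjusted p = 9.49e-08). With ERCC scaling 54 were positive, beside 29.4% of all genes, whose median was then 0.68. The comparison of MII with GV in controls and that of Dis3 cKO with control at MII share the 8 control eggs, so their values for one gene are not independent.

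Other measures of the eggs were as follows. Mitochondrial transcripts were 0.458% to 2.98% of gene counts (median 1.07%) in mutant and 0.682% to 1.09% (median 0.809%) in control eggs. Gene counts per ERCC count were 14.4 to 81.0 in mutant and 42.2 to 52.2 in control eggs. Mutant egg 15 set both the highest mitochondrial share and the lowest ERCC ratio, and the other 15 reached 1.67% and went down to 48.6. All 12 granulosa and cumulus markers had counts in control eggs, with a summed level of 105 to 155 CPM, and in mutant eggs 9 of 12 had counts, at 60.6 to 101 CPM, with Foxl2, Inha and Hsd17b1 at 0 in all 16. Stroma and blood marker lists reached at most 21.4 and 7.42 CPM in any poly(A) library. Most of the granulosa and cumulus sum was Cyp19a1, Nr5a2 and Kitl, with medians of 63.0, 30.6 and 15.7 CPM in control and 27.5, 35.1 and 9.65 CPM in mutant eggs, and Foxl2, Inha and Hsd17b1 had a median of 0 in control eggs too. The part of the mitochondrial share, the ERCC ratio and the granulosa markers in the increase was not tested. Without mutant egg 15, 37 genes were higher and 4 lower, beside 27.6% and 15.7% of all genes.

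**Figure D2:**
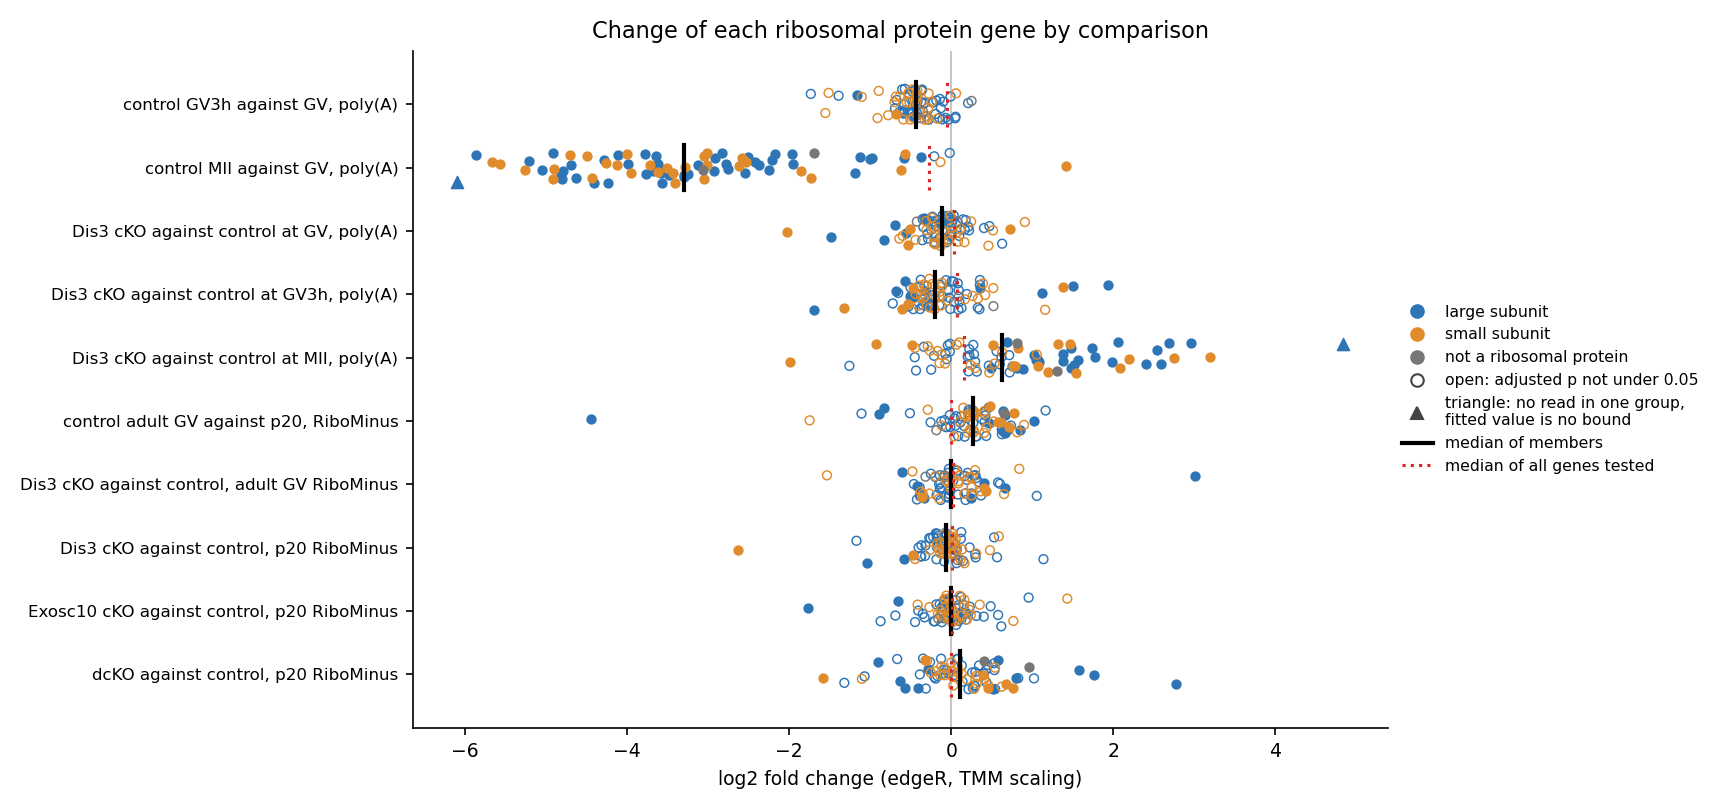
Log2 fold change of each tested ribosomal protein gene (points, coloured by subunit, filled where the adjusted p is under 0.05) in 10 comparisons; black bars are the medians of these genes and red dotted bars those of all genes tested. The control MII against GV row is shifted to a median of −3.30 and the Dis3 cKO row at MII to 0.63, while the other Dis3 cKO rows lie near 0; the 2 triangles are Rpl9, which had no read in control MII eggs.

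Genes around the ribosomal proteins were mixed in Dis3 cKO eggs. Fau and Rack1 did not pass the test. Of the 17 translation factors and related genes, 3 were higher (Btf3, Eef1b2 and Npm1) and 4 lower (Eef1a1, Eef2, Eif3e and Eif3l), with Eef1a1 at −0.82 (SE 0.12). Among the 14 TOP and mTOR genes Tia1 was higher (3.73, SE 0.52) and Eif4e and Larp4 were lower. Of 33 assembly factors 7 were higher and 6 lower, and of 11 RNA polymerase I genes 3 were higher and 5 lower. Of 13 pseudogenes tested 5 were higher and 0 lower. Pseudogene counts per 100 ribosomal protein gene counts had a median of 1.55 in control and 1.99 in mutant eggs.

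**Figure D3:**
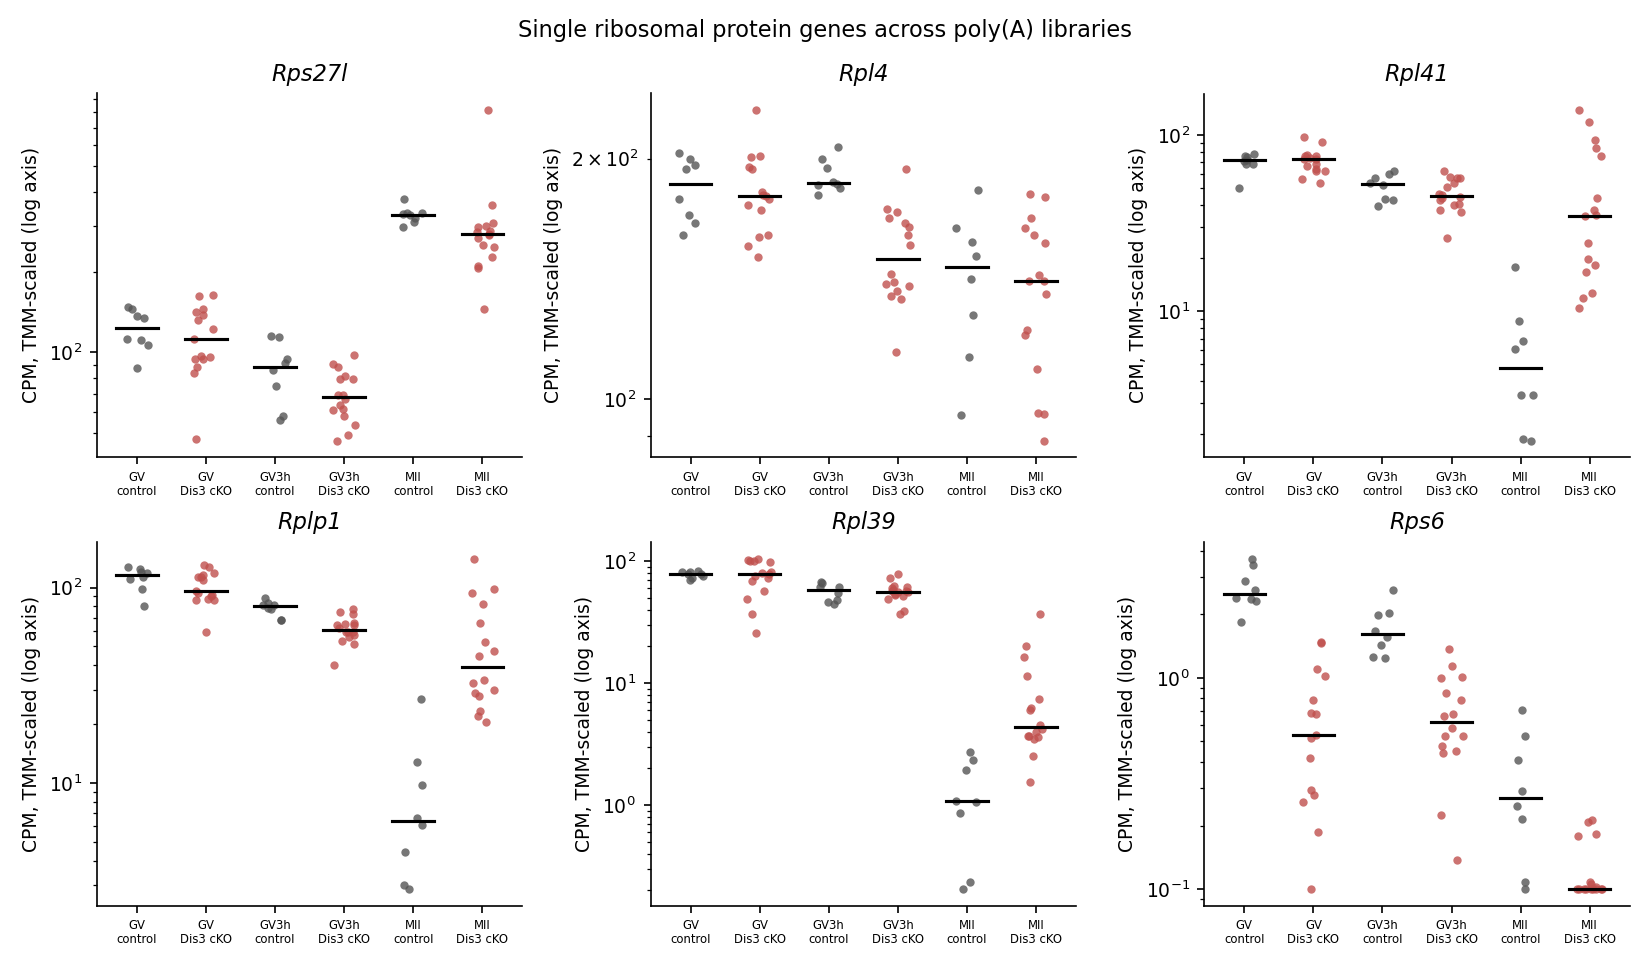
CPM (log axis) of 6 ribosomal protein genes in each poly(A) library (points), with the group median as a bar; values under 0.1 are drawn at 0.1. Rps27l is highest at MII, Rpl4 changes little beside the others, and Rpl41, Rplp1 and Rpl39 drop in control MII eggs and spread upward in Dis3 cKO eggs, while Rps6 is lower in Dis3 cKO at each stage.

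The RiboMinus set had no MII group to compare with these eggs. At the adult GV stage these genes did not shift as a group with Dis3 cKO in RiboMinus libraries. The median change in poly(A) GV libraries was also small, at −0.11. In adult oocytes ribosomal protein genes made up 0.116% to 0.136% of gene counts in controls (median 0.123%) and 0.117% to 0.171% in Dis3 cKO (median 0.136%). Of 79 genes tested, 6 were higher and 4 were lower in Dis3 cKO, beside 15.7% and 12.4% of all genes tested, and the median change was −0.01. Rpl41 was raised in Dis3 cKO eggs at MII in poly(A) libraries, which differ in stage as well as in method. Here Rpl41 was lower, at 21.4 to 26.5 CPM in controls (median 23.9) and 9.82 to 22.5 CPM in Dis3 cKO (median 14.7). Its log2 change was −0.60 (SE 0.15, adjusted p = 0.00449). Rplp1 (−0.42, SE 0.11), Rps2 (−0.37) and Rpl22 (−0.34) also fell. Rplp0 (0.66, SE 0.17, adjusted p = 0.00824), Rps4x (0.43, SE 0.09), Rpl36al (0.41), Rps27l (0.41) and Rpl4 (0.24) rose, and Rps4x was at 24.6 to 31.0 CPM in controls and 32.4 to 47.7 CPM in mutants, without overlap. Rplp0 stood apart from the controls in the libraries tagged AM1713, at 34.2 to 40.0 CPM, while those tagged AM1757, at 18.3 to 28.3 CPM, overlapped the controls at 14.7 to 24.7 CPM. Scaled to ERCC, 1 gene was higher and 38 were lower, beside 4.56% and 40.1% of all genes, and Rps4x, Rpl36al and Rps27l changed sign. Each adult group carries a pair of title tags. When counts were summed per tag, leaving 2 against 2, edgeR called 0 of the 79 genes and none of all 15334 genes tested, with 4 of the 79 at an unadjusted p under 0.05. Mitochondrial transcripts were 0.799% to 1.21% of counts in adult controls and 1.24% to 3.04% in Dis3 cKO, and their part in these changes was not tested.

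At p20 single knockouts changed few of these genes. With Dis3 cKO the share was 0.0962% to 0.126% (median 0.102%), against 0.106% to 0.112% in control oocytes, and 0 genes were higher and 4 lower of 80, beside 3.61% and 3.76% of all genes tested. Those 4 were Rpsa (log2 change −2.64, SE 0.69, adjusted p = 0.0124), Rpl23 (−1.03, SE 0.27), Rplp0 (−0.58, SE 0.18) and Rps2 (−0.48, SE 0.15). Rps2, a protein at the mRNA entry of the small subunit, was at 25.5 to 36.4 CPM in control and 16.2 to 24.6 CPM in Dis3 cKO oocytes, without overlap. With Exosc10 cKO the share was 0.0899% to 0.163%, and 0 genes were higher and 2 lower, beside 3.95% and 3.50% of all genes tested. They were Rpl37rt (−1.76, SE 0.39, adjusted p = 0.00336) and Rplp0 (−0.66, SE 0.18, adjusted p = 0.0156). Rplp0 stood at 30.5 to 41.9 CPM in control, 16.9 to 29.6 CPM in Dis3 cKO and 10.9 to 42.2 CPM in Exosc10 cKO oocytes. Counts summed per tag left 0 of 80 genes called by edgeR for either knockout, beside 0.907% of all genes higher and 1.07% lower for Dis3 and 0.856% and 0.548% for Exosc10, with 4 for Dis3 and 3 for Exosc10 at an unadjusted p under 0.05. The unsummed counts at an unadjusted p under 0.05 were 9 and 6.

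Rpsa, whose protein is part of the small subunit and is also known as the laminin receptor, differed in level between the p20 groups. It was at 0.526 to 1.88 CPM in control oocytes (median 1.44), 0 to 1.13 CPM in Dis3 cKO (median 0.0361), 2.08 to 5.25 CPM in Exosc10 cKO (median 3.79) and 0 to 1.82 CPM in dcKO (median 0.270). Exosc10 cKO lay above control in all 8 oocytes, yet did not pass the test (log2 change 1.43, SE 0.61, adjusted p = 0.158). The contrast of dcKO with Exosc10 cKO was −3.01 (SE 0.66, adjusted p = 0.000306). These are low levels, and Rpsa has many pseudogene copies.

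With both RNases lost, more of these genes and more of all genes passed the test than in single knockouts. The share of these genes that passed was under that of all genes in both directions. The share in dcKO oocytes was 0.106% to 0.148% (median 0.127%), and the 4 libraries of title tag 1 held 0.139% to 0.148% while the 4 of tag 2 held 0.106% to 0.114%, near the control range of 0.106% to 0.112%. Of 80 genes, 12 were higher and 7 were lower than in control, beside 26.6% and 27.1% of all genes tested, with a median of 0.11. Tag 1 alone gave 17 higher and 3 lower, beside 24.7% and 25.1% of all genes. Tag 2 alone gave 1 higher and 2 lower, beside 11.9% and 13.6%, and counts summed per tag gave 5 higher and 0 lower, beside 20.9% and 20.2%. What the tags mark is not given in the labels.

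Rpl10l rose most in dcKO oocytes. It was at 0.234 to 3.94 CPM in control (median 1.83) and 6.38 to 20.8 CPM in dcKO (median 14.7), a log2 change of 2.77 (SE 0.44, adjusted p = 3.02e-06) with no overlap. Within dcKO the tag 1 libraries held 14.6 to 20.8 CPM and the tag 2 libraries 6.38 to 14.7 CPM, and both were above all controls. Its parent Rpl10 was at 1.59 to 4.27 CPM in control and 3.89 to 14 CPM in dcKO (1.58, SE 0.30). In single knockouts Rpl10l did not pass the test, with log2 changes of 1.14 (SE 0.43, adjusted p = 0.11) for Dis3 and 0.49 (SE 0.43) for Exosc10. The contrast of dcKO with each single knockout was 1.64 (SE 0.42) and 2.29 (SE 0.43) and passed in both. Rpl12 (1.77, SE 0.66), Rpl7l1 (0.96, SE 0.22) and Rpl7 (0.80, SE 0.20) also rose against control, and Rpl7l1 went from 7.37 to 20.7 CPM to 12.2 to 31.8 CPM. Among the 7 that fell were Rpsa (−1.58), Rpl37rt (−0.91), Rpl28 (−0.64), Rpl39 (−0.57) and Rpl14 (−0.41).

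Set against Dis3 cKO, dcKO oocytes had 16 genes higher and 2 lower, beside 26.0% and 25.5% of all genes tested. Rpl12 (1.81), Rpl10l, Rpl10 (1.28), Rpl7l1 (0.87) and Rpl23 (0.86) led the increase, and Rpl28 (−0.63) and Rpl17 (−0.45) fell. Set against Exosc10 cKO, 11 were higher and 5 lower, beside 24.2% and 25% of all genes, with Rpl10l, Rpl10 (1.45), Rpl7l1 (0.90), Rplp0 (0.69) and Rpl7 (0.68) higher and Rpsa, Rpl21 (−1.94), Rpl28 (−0.74), Rpl14 (−0.60) and Rpl15 (−0.34) lower. These contrasts share the dcKO libraries. Counts summed per title tag gave 6 higher and 0 lower against Dis3 cKO, beside 19.1% and 18.3% of all genes. Against Exosc10 cKO they gave 4 higher and 3 lower, beside 17.8% and 17.7%.

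In dcKO oocytes the neighbouring lists moved in both directions against control. Rack1 rose (0.36, SE 0.13), and Fau did not pass the test. Of 17 translation factors and related genes 4 were higher and 7 lower, with Naca (−0.73), Eif3e (−0.74) and Btf3 (−0.52) among the lower. Of the 14 TOP and mTOR genes 7 were higher, among them Larp1 (1.30, SE 0.16), Rptor (0.81), Eif4ebp1 (1.38) and Tia1 (2.50), and Larp4 fell (−1.67, SE 0.12). Of 34 assembly factors 8 were higher and 12 lower, and of 11 RNA polymerase I genes 3 were higher, among them Ubtf (1.74), and 5 lower. Of 6 pseudogenes tested 2 were higher and 1 lower. In adult Dis3 cKO oocytes Tia1 (2.69), Ubtf (0.93), Fau (0.96) and Rack1 (0.33) were higher, and Larp4 (−0.54) and Tpt1 (−0.60) were lower.

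**Figure D4:**
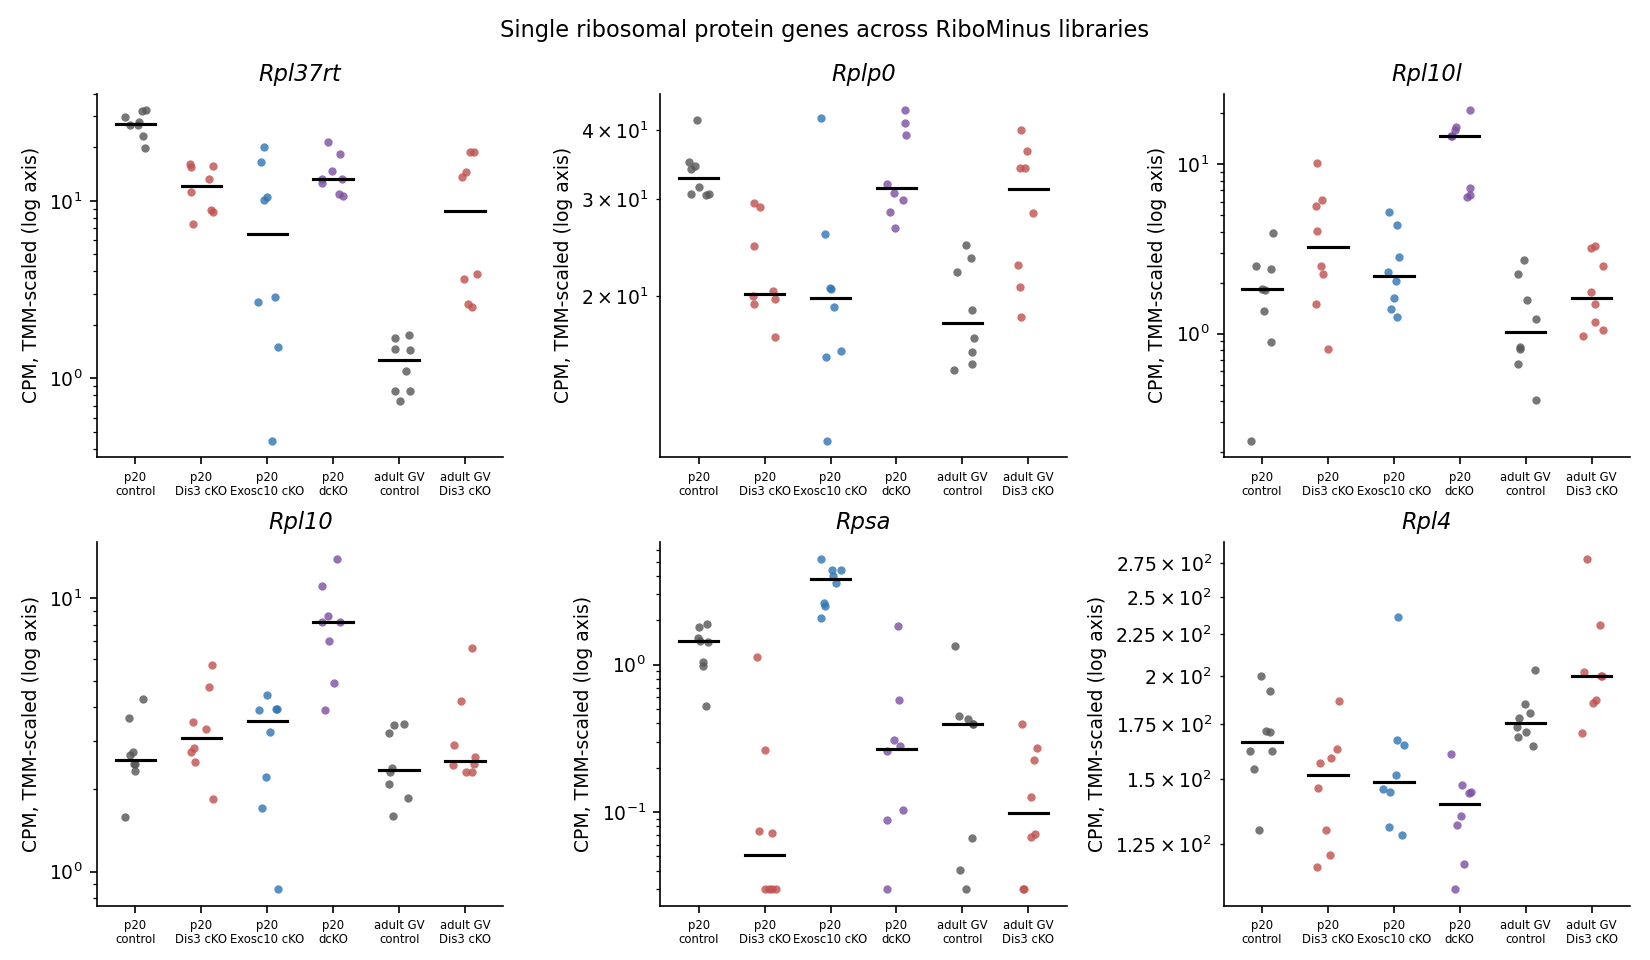
CPM (log axis) of 6 ribosomal protein genes in each RiboMinus library (points), with the group median as a bar; values under 0.03 are drawn at 0.03. Rpl10l and Rpl10 are highest in dcKO, Rpsa is highest in Exosc10 cKO, Rpl4 is nearly level, and Rpl37rt splits within adult Dis3 cKO and Exosc10 cKO.

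Controls of both ages could be compared within the RiboMinus set. Of 80 genes, 14 were higher and 3 lower in adult GV than in p20 oocytes, beside 8.69% and 10.4% of all genes tested, with a median of 0.27. Rpl6 (1.02), Rpl26 (0.84), Rps27a (0.78), Rps14 (0.71) and Rpl30 (0.69) rose, and Rpl37rt (−4.45, SE 0.48), Rpl23 (−0.89) and Rplp0 (−0.83) fell. Relative to ERCC no gene was higher and 77 were lower, beside 0.417% and 85.7% of all genes, with a median of −1.41 beside −1.69 for all genes, so all 14 that were higher changed sign. The Dis3 effect in adult oocytes differed from that at p20 in 4 genes, all positive, beside 5.34% of all genes positive and 3.98% negative: Rpl37rt (4.15, SE 0.61), Rpl23 (1.30, SE 0.40), Rplp0 (1.22, SE 0.25) and Rps4x (0.54, SE 0.15). Counts summed per tag gave 1 gene for age, beside 0.689% of all genes higher and 1.09% lower, and 0 for this difference by edgeR, beside 0.243% and 0.162%, with 21 and 7 at an unadjusted p under 0.05.

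Rpl37rt, a retrotransposed copy of Rpl37, varied between sets of libraries within a genotype. In GV Dis3 cKO oocytes it was at 2.19 to 3.31 CPM in title numbers 1 to 4, at 18.4 to 64.7 CPM in numbers 5 to 8 and at 30.5 to 46.6 CPM in numbers over 8, while the 8 controls held 45.7 to 149 CPM. At GV3h, Dis3 cKO numbers 1 to 8 held 1.92 to 3.58 CPM and numbers over 8 held 28.3 to 36.4 CPM, against 43.3 to 78.6 CPM in controls. In adult RiboMinus oocytes it was at 0.740 to 1.76 CPM in controls, at 13.7 to 18.9 CPM in Dis3 cKO libraries tagged AM1713 and at 2.53 to 3.88 CPM in those tagged AM1757. At p20 Exosc10 cKO tag 1 held 0.444 to 2.86 CPM and tag 2 held 10.1 to 20.002 CPM, and control oocytes 19.9 to 32.5 CPM. Other sets did not split: tags 1 and 2 held 8.67 to 15.7 and 7.43 to 16.0 CPM in p20 Dis3 cKO, 10.6 to 14.8 and 12.7 to 21.3 CPM in dcKO, and 23.1 to 32.5 and 19.9 to 32.1 CPM in p20 control oocytes. Both adult control tags lay between 0.740 and 1.76 CPM, and MII Dis3 cKO eggs 1 to 8 and over 8 held 8.18 to 21.5 and 5.50 to 25.4 CPM. Levels thus differed by title number or tag in GV, GV3h and adult Dis3 cKO and in Exosc10 cKO oocytes, and what the numbers and tags mark is not given in the labels. Its parent Rpl37 changed by −0.06 (SE 0.38) in the adult comparison where Rpl37rt had 3.01 (SE 0.47, adjusted p = 0.000106).

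Chromatin at the same genes was read from CUT&Tag peak lists, which mark where an antibody was bound and were deposited for each library apart, each made from pooled oocytes (bulk, per the labels). A start counted as marked when a peak overlapped the 500 bases either side by at least 1 base. For phosphorylated RNA polymerase II (S2 and S5 in the titles), 1, 8 and 4 of the 68 starts were marked in the 3 adult control libraries (1.47%, 11.8% and 5.88%), beside 2.21%, 4.34% and 3.10% of all genes. In p20 controls 6, 10 and 8 starts were marked (8.82%, 14.7% and 11.8%), beside 7.41%, 8.77% and 8.10% of all genes, and in adult Dis3 cKO 9, 3 and 7 (13.2%, 4.41% and 10.3%), beside 7.64%, 3.56% and 10.5%. Lists differed in length from 19697 to 122606 peaks, so no change between groups is read from them. Rpl28 was marked in all 3 libraries of p20 control and of adult Dis3 cKO, and in 2 of the 3 of adult control. Rps25 was marked in all 3 of p20 control, 1 of adult Dis3 cKO and 0 of adult control. The repressive mark H3K27me3 was at 1 to 3 of the 68 starts (1.47% to 4.41%) in each of 12 libraries of 4 groups, beside 14.9% to 25.9% of all genes. Rpl3l, the muscle form of Rpl3 and a gene without reads in control GV oocytes, was marked in all 3 libraries of p20 control and of p20 dcKO. It was also marked in 2 of the 3 libraries of adult control and of adult Dis3 cKO.

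**Figure D5:**
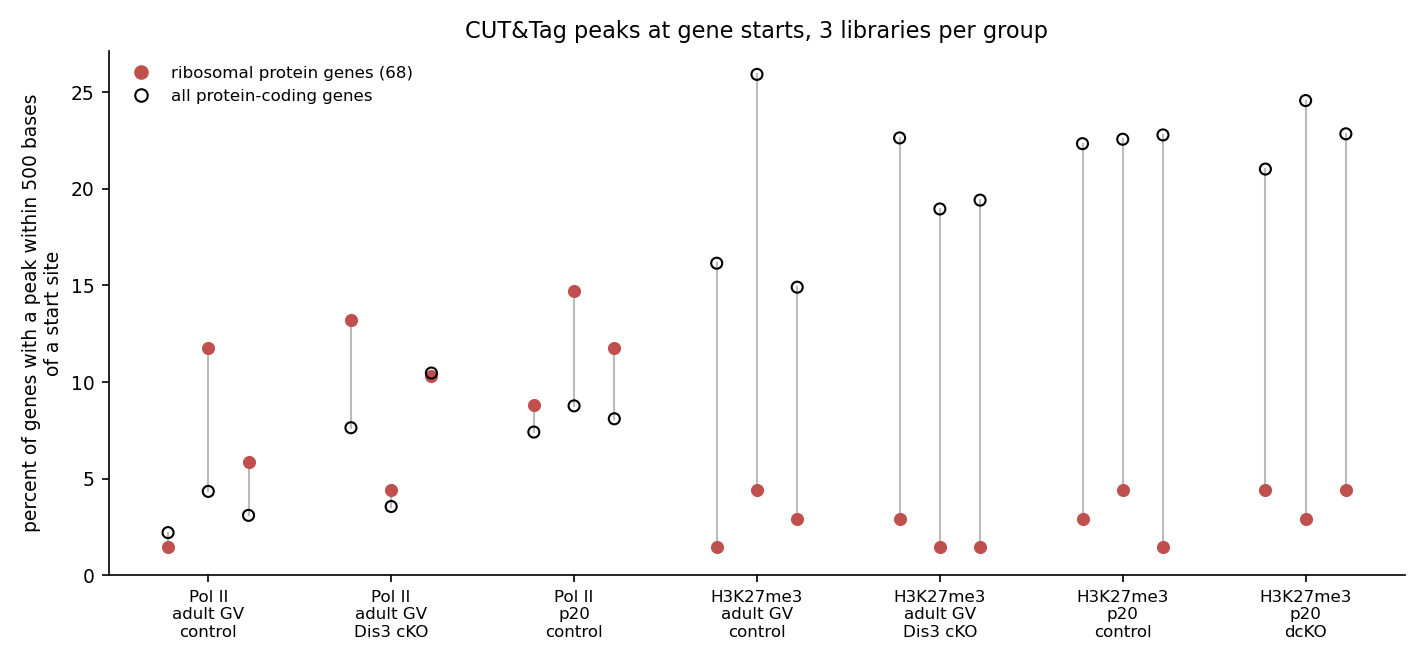
Percent of start sites with a CUT&Tag peak within 500 bases, for the 68 ribosomal protein genes with a start (filled) and for all protein-coding genes (open), in 21 libraries of 7 groups. Polymerase II values of the ribosomal protein genes range from 1.47% to 14.7%, and their H3K27me3 values stay at or under 4.41%, below all genes in each library.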

How the data were processed

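Groups came from the sample titles. Whole-number counts per gene and library were deposited by the authors; the submitters' processing notes name mm10, cutadapt 2.5, STAR 2.7.2a, SAMtools 1.9, HTSeq 0.9.1, R 3.5.1, DESeq2 1.24.0, FastQC 0.11.8 and SEACR, without roles, and the annotation release, strand and treatment of reads with several matches are not given in the sources used here. Peak lists carry a total signal per peak, deposited by the authors; its median over RNA polymerase II peaks (3610) served as a stricter limit. Symbols were found for 99.7% (poly(A)) and 99.4% (RiboMinus) of gene IDs, and 0 rows named no gene.

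Counts were tested with edgeR 4.0.16 in R 4.3.3 (limma 3.58.1): TMM scaling without ERCC, filterByExpr by group, quasi-likelihood F tests, Benjamini-Hochberg adjustment over all genes, threshold 0.05. All 6 poly(A) groups shared a fit, as did the 4 p20 groups; the 2 adult groups were fitted alone, and contrasts between ages used all 6 RiboMinus groups. Alternatives were ERCC scaling, DESeq2 1.42.0 size factors and Wald test, no filter, a replicate block, only the groups compared, sums per title tag, and libraries left out. The steps were tested on simulated data, where DESeq2's Wald test, used here only as an alternative, made more false calls than the threshold of 0.05 allows, and its limit in that test was loosened after this was seen. Genes, lists and tests were chosen with earlier results of these data known. Named in each comparison were up to 5 genes with the largest change in each direction among those past the threshold, the paralogue pairs and the 2 genes that are not ribosomal proteins; other genes are given as examples. Gene lengths were not used here, so the part of that rule that ranks levels per length could not be applied. The 3 IgG libraries were not analysed here. The values of some single genes are not reported here, though the genes stay in the counts and medians.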

Additional observations from a re-analysis of the deposited data

Results flagged for a closer look

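Dixon's test at 95% was run on 108 combinations of measure and group, with 4 to 10 libraries each. A measure was the level of 1 gene or the share of all of them together. In 15 combinations a library stood apart from the rest of its group, where chance gives about 1 in 20. The share of ribosomal protein genes was 0.126% in p20 Dis3 cKO library 4 of tag 1 and 0.163% in p20 Exosc10 cKO library 4 of tag 2, above the others of their groups. These 2 libraries also had the lowest ratio of gene counts to ERCC counts of their groups. Without both of them 0 genes were higher and 3 lower for Dis3 cKO, and 0 and 3 for Exosc10 cKO. Of all genes, 3.38% were higher and 3.63% lower for Dis3 cKO, and 3.92% and 3.21% for Exosc10 cKO.

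Control MII egg 8 stood apart for Rpl41 (17.9 CPM) and Rps15 (2.46 CPM), and control MII egg 3 for Rps19 (2.43 CPM). Control GV oocyte 1 stood apart for Rplp0 (242 CPM) and Rps15a (47.7 CPM), and control GV3h oocyte 3 for Rpl10l (3.63 CPM). In p20 libraries the values were 4.45 CPM for Rpl39 in control 3 of tag 1, 20.7 CPM for Rpl7l1 in control 4 of tag 2, 41.9 CPM for Rplp0 in control 1 of tag 2, 19.0 CPM for Rpl7l1 in Dis3 cKO 1 of tag 2, 1.13 CPM for Rpsa in Dis3 cKO 3 of tag 2 and 1.82 CPM for Rpsa in dcKO 2 of tag 1. In adult Dis3 cKO, library 1 of tag AM1713 held 47.7 CPM of Rps4x.

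The effect of Dis3 cKO differed between MII and GV in 35 genes by edgeR's test of the difference. The difference in log2 change was 3.41 for Rps29, 2.92 for Rpl41, 2.72 for Rpl39 and 2.67 for Rplp1. For Rpl9 the fitted difference was 4.37, a value that depends on the prior count because all 8 control MII eggs were at 0, and that is no bound. Between adult and p20 RiboMinus oocytes it differed in 4 genes: Rpl37rt (4.15), Rpl23 (1.30), Rplp0 (1.22) and Rps4x (0.54).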

How the results depend on the processing

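Counts below are genes called of those tested, and the cause of each shift was not tested. Fitting only the groups compared gave 39 for Dis3 cKO at GV3h (15 otherwise). Of these, 9 were higher and 30 lower, beside 29.7% and 24.9% of all genes. That fit gave 23 at MII (43), beside 17.5% and 13.2%, and 35 for control GV3h (3), beside 7.66% and 7.45%. For Exosc10 cKO it gave 4 (2), beside 3.97% and 4.33%, and for the GV3h difference 1 (0), beside 3.08% and 1.94%. Title numbers 1 to 8 alone gave 11 at GV3h, where the balance of directions turned. For control GV3h they gave 13, beside 1.66% of all genes higher and 2.23% lower. For the GV3h difference they gave 1, beside 1.16% and 1.55%. The replicate block gave 15 at GV3h with the balance turned. For control GV3h it gave 1, beside 1.08% of all genes higher and 1.33% lower. For control GV3h, DESeq2 size factors gave 1, beside 1.26% of all genes higher and 1.43% lower, and no filter 1, beside 0.353% and 0.465%. DESeq2's Wald test gave 8, beside 1.70% and 1.94%, and ERCC scaling 0, beside 0.380% and 0.299%.

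Sums per title tag gave 0 for adult Dis3 cKO (10), for p20 Dis3 cKO (4), for Exosc10 cKO and for the adult difference (4), 1 for age (17, balance turned), and 5, 6 and 7 for dcKO against control (19), Dis3 cKO (18) and Exosc10 cKO (16). Tag 2 alone gave 3 for dcKO, balance turned. No filter gave 7 for adult Dis3 cKO, balance turned, beside 8.19% of all genes higher and 5.41% lower.

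ERCC scaling gave 39 for adult Dis3 cKO and 77 for age, both with the balance turned, and 54 for the MII difference (35). For p20 Dis3 cKO this scaling gave 10, beside 0.781% of all genes higher and 5.31% lower. For dcKO it gave 9 against control, beside 17.8% and 20.4%, and 10 against Exosc10 cKO, beside 14.6% and 17.0%. Under it these log2 changes reversed: Rps4x −0.14, Rpl36al −0.17 and Rps27l −0.19 in adult Dis3 cKO, Rps27l −0.43 from GV to MII, and Rpl6 −0.67, Rpl26 −0.82, Rps27a −0.92, Rps14 −1.01 and Rpl30 −1.01 with age. Over all alternatives, 661 of 670 named values kept their direction and 548 stayed past the threshold.

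The log2 ratio of median shares from GV to MII in controls was −2.31, −3.14 without the 5 highest genes and −3.87 against ERCC. Against ERCC it was −0.18 for control GV3h (otherwise −0.40), and −0.57, −0.35, −0.59 and −0.36 for Dis3 cKO at GV, GV3h, adult and p20 (otherwise −0.06, −0.17, 0.15 and −0.12), and −1.46 for age (otherwise 0.15). For Dis3 cKO at MII the ratio of shares of gene counts was 0.50, with 0.92 without the 5 highest genes and 0.72 against ERCC. For dcKO against control at p20 the ratio was 0.19, and −0.02 against ERCC. With polymerase II peaks above the median signal, the mean share of marked starts in p20 controls was 6.37% (otherwise 11.8%), beside 5.4%, 5.10% and 5.58% of all starts in the 3 libraries (otherwise 7.41%, 8.77% and 8.10%).

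Same-numbered libraries were not treated as pairs: the correlation of their deviations ran from −0.47 to 0.60, and in no pair of groups was every value over 0.1. The block changed no other count by over 1.5 times. Depth limits genes with few reads, such as Rpl9, Rps28 and Rpsa.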
